A study of Canis lupus familiaris with 16 samples.

Results

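Of 16 canine soft tissue sarcomas, 5 carried the transcripts of a keratinizing epidermis and 11 carried few of them. The 5 tumors, called epidermal tumors here, were S1-02, S1-04, S1-05, S1-12 and S2-03. They were chosen by measured values, as the tumors with the highest mean z-score of log2(CPM + 1) over *KRT5*, *KRT14*, *KRT1*, *KRT10* and *DSG1*, where CPM is a gene's counts per 1000000 counts on genes of that tumor, after TMM normalization. By molecular identity, S1-02 and S1-12 were fibrosarcomas (FS), S1-04 and S1-05 were peripheral nerve sheath tumors (PNST) and S2-03 was a perivascular wall tumor (PWT). The other 11 tumors were 2 FS, 4 PNST and 5 PWT. For S1-10 and S2-08, both among the 11, the histological diagnosis differed from the molecular identity.

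The study sequenced RNA from sections of formalin-fixed, paraffin-embedded (FFPE) client-owned dog tumors, taken in routine practice, and asked which genes tell the 3 tumor types apart. No group received a treatment, and no normal skin was among the samples analysed here. The epidermal tumors came from a Beagle (shoulder, subcutaneous), a Standard Poodle (knee, with identical entries for S1-04 and S1-05), a Whippet (metacarpus) and a Golden Retriever (head), aged 9 to 12 years. The other 11 tumors came from dogs aged 2 to 14 years and from sites on the hip, limb and trunk. S1-04 and S1-05 may come from 1 dog, and they were the most similar pair of tumors (Spearman's rho over genes 0.923). Their counts differed more (chi-square 12.1 per degree of freedom) than runs of 1 library did (1.47 and 1.52), so they are not 1 library deposited again, but they could be pieces of 1 tumor. They were counted as 2 tumors because the labels list them so, and values with both summed as 1 are given below.

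The epidermis is a layered epithelium. Its basal cells carry *KRT5* and *KRT14* and sit on the basement membrane, the cells above them switch to *KRT1* and *KRT10* and are held together by desmosomes, and the outermost cells seal the surface with a cornified envelope and with lipids. Hair follicles, sebaceous glands and sweat glands grow from the same epithelium down into the dermis and the fat beneath it, and skin also holds resident T cells, dendritic cells, melanocytes and fat. Soft tissue sarcomas are mesenchymal and are not known for any of these keratins, apart from single simple-epithelium keratins.

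Counts on genes ranged from 507728 (S1-12) to 3016271 in the epidermal tumors (median 2234165) and from 726025 to 4311876 in the others (median 1855810). Between 22.9% and 28.5% of reads were on genes in the epidermal tumors and between 23.2% and 30.6% in the others. At these depths 3 counts correspond to 5.52 CPM in S1-12 and to 1.08 CPM in S1-02, so a gene listed at 0 in S1-12 may still be present at several CPM. 4 of the 5 epidermal tumors and 5 of the other 11 had the prefix S1. In bulk RNA, fewer cells of a kind and less RNA per cell cannot be told apart.

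The score lay between 1.26 (S1-12) and 1.55 (S1-02) in the epidermal tumors. The nearest tumor outside the group was S2-06, at -0.596, and the lowest was S2-04, at -0.772. *KRT5*, the basal layer keratin, stood at 235 CPM in S1-02, 218 in S1-04, 326 in S1-05, 164 in S1-12 and 269 in S2-03, and at 0 to 0.950 CPM (median 0) in the other 11. *KRT14*, its partner, stood at 112 CPM in S1-02, 119 in S1-04, 151 in S1-05, 77.3 in S1-12 and 89.2 in S2-03, and at 0 to 3.02 CPM (median 0) in the others.

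*KRT1* and *KRT10* form the filaments of the suprabasal layers. *KRT1* stood at 200.4 CPM in S1-02, 100.2 in S1-04, 163 in S1-05, 88.4 in S1-12 and 85.6 in S2-03, and at 0 to 1.14 CPM (median 0) in the others. *KRT10* stood at 311 CPM in S1-02, 129 in S1-04, 192 in S1-05, 125 in S1-12 and 179.7 in S2-03, and at 4.18 to 11.4 CPM (median 8.23) in the others. *DSG1*, the desmosomal cadherin of the upper layers, stood at 127 CPM in S1-02, 75.1 in S1-04, 123 in S1-05, 86.6 in S1-12 and 212 in S2-03, and at 0 to 1.496 CPM (median 0) in the others. For each of the 5 genes, every epidermal tumor lay above every other tumor, which is what the choice of tumors fixed, and *KRT10* was the one that all 11 other tumors also carried above 4 CPM. The 3 keratins *KRT5*, *KRT14* and *KRT1* were at 0 in the median other tumor, as was *DSG1*.

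**Figure D1:**
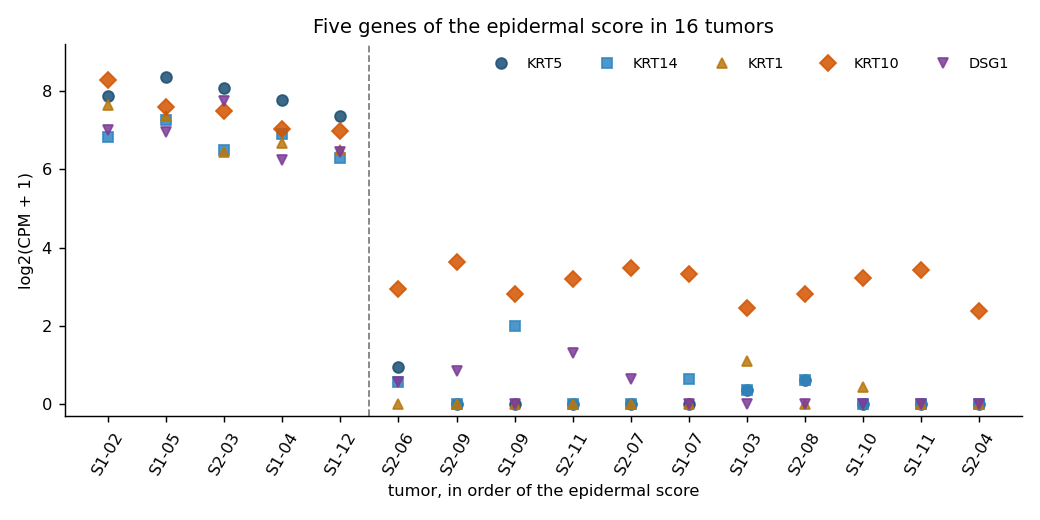
Level of the 5 score genes, as log2(CPM + 1), in each of the 16 tumors, ordered by score with the 5 epidermal tumors left of the dashed line. In the epidermal tumors all 5 genes sit above 6, and in the other 11 tumors none reaches 4.

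The rest of the epidermis came with these genes. They are given without a test, since the tumors were chosen on this tissue, and most of them passed the filter on low counts (at least 10 counts in at least 4 tumors) only because of the epidermal tumors. Across the 7 epidermal lists, 93 genes were in the table, 65 passed the filter and 41 of these passed only with the epidermal tumors. edgeR's quasi-likelihood fit with tumor type as a term called 42 of the 65 higher (adjusted p under 0.05 and log2 fold change above 1), where 1.63% of all 15408 tested genes were called higher, and nothing is read from that difference.

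By layer, the basal list held 6 called genes of 11, among them *KRT15*, a keratin of basal and follicle stem cells (29.04 to 37.2 CPM against at most 0.560 CPM in S2-07), and *COL17A1*, the collagen that anchors basal cells (32.7 to 55.2 CPM against at most 6.54 CPM in S2-09). The median log2 fold change of this list was 1.44. The desmosome list had 8 called of 13 (median log2 fold change 4.17), with *DSC1* at 20.3 to 61.4 CPM, *DSC2* at 18.9 to 42.6 CPM and *DSP*, the plaque protein desmoplakin, at 305 to 503 CPM. The cornified envelope list had 10 of 11 (median 5.85). Filaggrin (*FLG*) stood at 65.3 CPM in S1-02, 98.99 in S1-04, 114 in S1-05, 64.5 in S1-12 and 77.5 in S2-03, and at most at 0.284 CPM in S1-03. *KRTDAP*, a keratinocyte differentiation protein, and *IVL*, involucrin, had no count in any of the 11 other tumors, which puts them at least 182-fold and 103-fold higher in the epidermal tumors (against 3 counts over the 11 tumors).

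The barrier list had 7 called of 10 (median 3.01). It included *KLK7*, a protease that sheds corneocytes (10.1 to 33.1 CPM), *SPINK5*, its inhibitor (27.1 to 59.2 CPM), and *CERS3* and *ELOVL4*, which make the very long chain ceramides of the barrier (3.68 to 7.67 CPM and 3.68 to 26.2 CPM). The list of epithelial identity factors and junctions had 6 called of 13 (median 1.40), among them *OVOL1* and *GRHL1*, transcription factors of keratinocyte differentiation. Another factor of this list, *GRHL3*, stood at 1.84 to 53.7 CPM in the epidermal tumors and reached 38.9 CPM in S2-11. *KRT17* and *KRT6A*, keratins of wounded epidermis and of the follicle, stood at 35.1 to 77.1 CPM and 19.4 to 64.3 CPM.

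The 5 tumors did not carry these layers in the same proportion. The summed CPM of *KRT1* and *KRT10* was 1.47 times that of *KRT5* and *KRT14* in S1-02 and 0.677 to 0.885 times in the other 4. *KRT77*, a suprabasal keratin, ranged from 7.01 CPM in S1-05 to 261 CPM in S1-02. The summed suprabasal list was highest in S1-02 and the summed basal list in S1-05.

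A few genes of these lists appeared in single other tumors without the rest of the epidermis. *KRT16*, a keratin of wounded epidermis, stood at 15.8 CPM in S1-02, 35.5 in S1-04, 58.4 in S1-05, 23.9 in S1-12 and 20.999 in S2-03, and at 42.8 CPM in S1-09, where *KRT6A* was at 11.8 CPM and *KRT5* at 0. *DSP* reached 98.1 CPM in S1-11, an FS without *KRT5* counts. *DSG2*, the desmosomal cadherin of simple epithelia, stood at 8.76 to 58.8 CPM in the epidermal tumors and at 133 CPM in S2-06, above every epidermal tumor.

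Across all genes, 251 were called higher and 13 lower in the epidermal tumors (1.63% and 0.0844% of 15408, edgeR's quasi-likelihood test with Benjamini-Hochberg adjustment). The median log2 fold change over all tested genes was -0.03. Of the 251, 42 were on the epidermal lists, 22 on the adnexal, 7 on the immune and 2 on other lists, and 178 were on none. 197 of the 251 passed the filter only with the epidermal tumors, and 54 passed it with the other tumors alone as well. Of all tested genes, 1515 were of the first kind, and 197 of these were called higher. They were tested only through their counts in the epidermal tumors, which favors genes high there but does not fix the direction (*TNNT1* had a log2 fold change of -1.52). Their p-values, and counts and medians that include them, are descriptions. An unadjusted p under 0.05 was found for 11.9% of all tested genes. Every epidermal tumor lay above every other tumor for 135 of the 251, where 0.909% of all tested genes showed this, and within each of the 3 types for 170, where 1.56% of all tested genes showed that. The 251 were selected by the same comparison on the same counts, so nothing is read from these differences. Because the tumors were grouped by their epidermal transcripts, the p-values here describe tumors grouped that way and do not test a treatment.

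The number called depended on each epidermal tumor. It was 121 without S1-02, 93 without S1-04, 92 without S1-05 and 72 without S2-03, and 327 without S1-12, the shallowest library. With S1-04 and S1-05 summed as 1 tumor it was 93, and 181 when the same 15408 genes were kept for that test, a setting chosen after seeing the data.

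Hair follicle genes were the largest adnexal group to come with the epidermis. Of 38 follicle genes in the table, 24 passed the filter, 21 of them only with the epidermal tumors. Of the 24, 20 were called higher, where 1.63% of all 15408 tested genes were. The median log2 fold change over the 24 was 7.10 (6.32 with genes at 0 in all 11 other tumors set to their lower bound). *TCHH*, trichohyalin of the inner root sheath and medulla, stood at 127 CPM in S1-02, 69.1 in S1-04, 139 in S1-05, 69.98 in S1-12 and 142 in S2-03, and at 0 to 2.24 CPM (median 0.950) in the others. The log2 fold change was 6.67 ± 0.36 (SE), and no epidermal tumor overlapped the other group. No p-value is given, since *TCHH* passed the filter only with the epidermal tumors, as did the called shaft keratins and sebaceous genes described next.

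The hard keratins of the hair shaft were seen in all 5 tumors. *KRT31* stood at 13.6 CPM in S1-02, 7.86 in S1-04, 29.8 in S1-05, 9.21 in S1-12 and 25.04 in S2-03, and in the others at most at 0.362 CPM in S1-10 (log2 fold change 7.51 ± 0.54 SE). *KRT81* stood at 11.5 CPM in S1-02, 16.3 in S1-04, 51.99 in S1-05, 36.8 in S1-12 and 22.2 in S2-03, and in the others at most at 0.547 CPM in S2-08 (7.12 ± 0.57 SE). *KRT82*, a hair cuticle keratin, stood at 12.9 CPM in S1-02, 8.80 in S1-04, 35.05 in S1-05, 27.6 in S1-12 and 6.87 in S2-03, and in the others at most at 0.302 CPM in S1-09 (7.32 ± 0.56 SE). S1-05 was the highest of the 5 for each of these 3 shaft keratins. *KRT71*, an inner root sheath keratin, was counted 135 times in the epidermal tumors and not once in the others, at least 93.2-fold higher (against 3 counts over the 11 tumors).

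Inner root sheath keratins on this list did not all separate the groups. *KRT27* stood at 19.002 CPM in S1-02, 6.60 in S1-04, 32.7 in S1-05, 1.84 in S1-12 and 14.9 in S2-03, and at 0 to 15.3 CPM (median 1.64) in the others, with the highest of those in S2-04. It was called (3.47 ± 0.82 SE, edgeR adjusted p = 0.0362), having passed the filter only with the epidermal tumors, so this is a description. The call was lost when any one of S1-02, S1-04, S1-05 or S2-03, or any one of several other tumors, was left out. *KRT25* stood at 25.8 CPM in S1-02, 19.8 in S1-04, 37.4 in S1-05, 11.05 in S1-12 and 62.6 in S2-03, and at 0 to 81.5 CPM (median 17.99) in the others, and was not called (0.88 ± 0.86 SE, edgeR adjusted p = 0.761). *KRT25* was highest in S1-09, a PNST outside the epidermal group. The follicle stem cell receptors *LGR5* and *LGR6* were not called either (log2 fold changes -0.43 and 0.41, both named after their values were seen).

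Hair genes outside the lists were called as well. All 6 of the tested keratin-associated protein genes (*KRTAP7-1*, *KRTAP11-1*, *KRTAP8-1*, *KRTAP3-1*, *KRTAP24-1* and *KRTAP16-1*, the matrix of the hair shaft, named after their values were seen) were called higher. So were 35 of 42 tested genes with a keratin or KRTAP symbol, where 1.63% of all 15408 tested genes were. The table held 10 KRTAP genes, and the 6 passed the count filter only with the epidermal tumors, so their calls are a description. *KRTAP7-1* stood at 15.1 CPM in S1-02, 25.8 in S1-04, 47.9 in S1-05, 36.8 in S1-12 and 44.8 in S2-03 and had no count in the other 11 tumors, at least 233-fold higher (against 3 counts over the 11 tumors). Keratins and KRTAPs are families of near-identical genes, so the split of reads among their members is uncertain.

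The amount of follicle relative to epidermis varied among the 5. The summed follicle list was 31.6% of the summed basal and suprabasal lists in S1-02, 42.2% in S1-04, 53.5% in S2-03, 55.6% in S1-12 and 71.1% in S1-05. By itself, the summed follicle list stood at 459 CPM in S1-02, 414 in S1-04, 900.1 in S1-05, 517 in S1-12 and 567 in S2-03, and at 19.5 to 189 CPM (median 77.6) in the others, where *KRT25* and *LGR6* made up much of it in S1-09. The groups did not overlap.

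Sebaceous genes were represented by fewer calls. Of 18 counted, 8 passed the filter and 2 were called, where 1.63% of all 15408 tested genes were called higher. Both had passed only with the epidermal tumors. *KRT79*, a keratin of the sebaceous duct and follicle opening, stood at 25.5 CPM in S1-02, 19.8 in S1-04, 23.9 in S1-05, 44.2 in S1-12 and 26.7 in S2-03, and in the others at most at 0.748 CPM in S2-11 (6.80 ± 0.51 SE). *FA2H*, a fatty acid hydroxylase, stood at 14.7 CPM in S1-02, 4.40 in S1-04, 7.59 in S1-05, 5.52 in S1-12 and 12.1 in S2-03, and in the others at most at 2.19 CPM in S2-08 (4.57 ± 0.68 SE).

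Of the 18 sebaceous genes, 10 were under the count filter, with 284 counts over the 5 epidermal tumors and 129 over the other 11. *AWAT1*, a wax synthase, had 58 counts over the 5 epidermal tumors and 2 over the other 11, *ELOVL3* had 57 and 2, and *MC5R*, a receptor that drives sebum secretion, had 79 and 4 (named after their counts were seen). These 3 were picked from the 10, whose other members held most of the counts in the other 11 tumors. DESeq2, run without the filter, called all 3 higher. *SOAT1* and *FAR2*, which other cells also use, were not called (log2 fold changes 0.21 ± 0.39 and 0.94 ± 0.44 SE, edgeR adjusted p = 0.897 and 0.405). *SOAT1* reached 249.9 CPM in S1-02 and 194 CPM in S2-06, so the groups overlapped. The median over the 8 tested sebaceous genes was 0.70.

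No gene of sweat glands and simple epithelium was called. Of 19 counted, 6 were tested, with 2 at an unadjusted p under 0.05 and a median log2 fold change of 0.38. DESeq2, run without the count filter, called 3 genes of this list (*KRT18*, *KRT19* and *LTF*), as did edgeR without it. *KRT7*, a simple-epithelium keratin, stood at 19.4 CPM in S1-02, 109 in S1-04, 193 in S1-05, 0 in S1-12 and 49.7 in S2-03 and at 4.93 to 315 CPM (median 148) in the others, with its highest level in the PWT S2-11 (-0.88 ± 0.66 SE, edgeR adjusted p = 0.659). *KRT8* was also highest in S2-11 (41.1 CPM) and lay at 0 to 11.8 CPM in the epidermal tumors (0.49 ± 1.39 SE, edgeR adjusted p = 0.937). *AQP5*, the water channel of secretory cells, had a log2 fold change of -0.19 ± 0.63 (SE, edgeR adjusted p = 0.948). *KRT19*, with 60 counts against 5, and *KRT18*, with 23 against 3, were under the filter (named after their counts were seen).

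The adnexal count of 22 also moved with the tumors used. It was 10 without S1-02, 9 without S1-04 or without S1-05, 11 without S2-03 and 21 without S1-12. With S1-04 and S1-05 summed it was 9, and 21 when the same 15408 genes were kept.

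**Figure D2:**
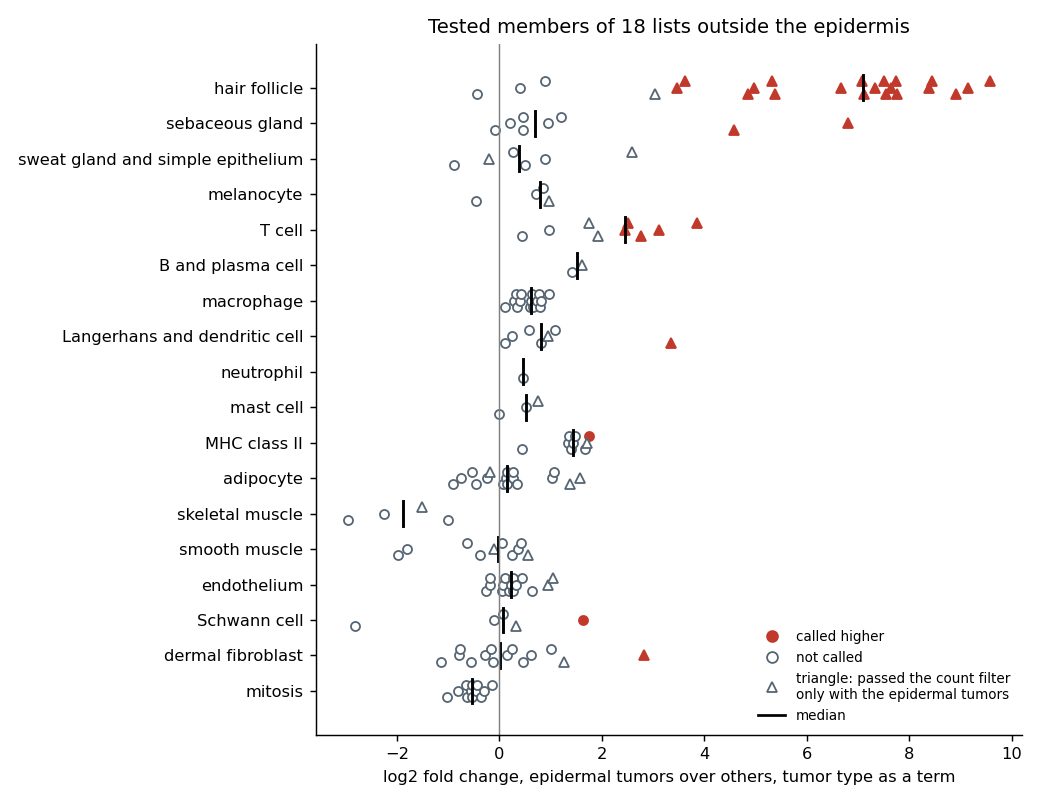
Log2 fold change of each tested gene in 18 lists outside the epidermis, epidermal tumors over the others with tumor type as a term. Filled points were called higher, triangles passed the count filter only with the epidermal tumors, and black bars are list medians. The follicle list sits furthest to the right, with a median of 7.10, while the adipocyte and endothelium lists lie around 0.

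Among immune lists, T cell genes gave the most calls. Of 16 T cell genes counted, 9 were tested, 7 of them having passed only with the epidermal tumors. Of the 9, 5 were called higher, all 5 among those 7, where 1.63% of all 15408 tested genes were. The median log2 fold change of the 9 was 2.46, a description, since the 7 were tested only through their counts in the epidermal tumors. *CD3E*, a chain of the T cell receptor complex, stood at 12.2 CPM in S1-02, 7.86 in S1-04, 7.59 in S1-05, 3.68 in S1-12 and 19.4 in S2-03, and at 0 to 4.18 CPM (median 0.748) in the others. It was called (3.85 ± 0.49 SE, edgeR adjusted p = 0.000101), and within each tumor type every epidermal tumor was the higher, while S1-12 lay below S2-04. *CD3E* passed the count filter only with the epidermal tumors, so its p-value is a description.

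*IL7R*, the receptor for a T cell survival cytokine, stood at 9.68 CPM in S1-02, 12.6 in S1-04, 5.84 in S1-05, 3.68 in S1-12 and 31.5 in S2-03, and at 0 to 10.8 CPM (median 1.99) in the others (2.51 ± 0.48 SE, edgeR adjusted p = 0.00606). It lost its call without S1-04 and without S2-03. *CD2*, an adhesion receptor of T and NK cells, stood at 20.4 CPM in S1-02, 7.86 in S1-04, 11.7 in S1-05, 0 in S1-12 and 10.5 in S2-03, and at 0.748 to 5.13 CPM (median 1.12) in the others (2.76 ± 0.53 SE, edgeR adjusted p = 0.00660). S1-12 was listed at 0 for *CD2*, and the other 4 epidermal tumors lay above all 11 other tumors. *IL7R* and *CD2* passed the count filter only with the epidermal tumors, so their p-values are descriptions.

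*LCK*, the kinase that starts T cell receptor signaling (named after its values were seen), was also called, at 0 to 11.1 CPM against 0 to 3.28 CPM (median 1.21) (2.46 ± 0.54 SE, edgeR adjusted p = 0.0196). It too passed the count filter only with the epidermal tumors, so its p-value is a description. *CD247*, the zeta chain shared with NK cells, was not called (0.45 ± 0.61 SE, edgeR adjusted p = 0.845) and was highest in S1-03, outside the group. *CD4*, also found on macrophages, reached 70.3 CPM in S2-06 and was not called (1.92 ± 0.92 SE, edgeR adjusted p = 0.426, named after its values were seen). *CD8A* had 20 counts in the epidermal tumors and 1 in the others, under the count filter (named after its counts were seen). edgeR without the filter called it higher, with 12 T cell genes called in all, and DESeq2 called 8. The summed T cell list stood at 146 CPM in S1-02, 129.8 in S1-04, 127 in S1-05, 62.6 in S1-12 and 211 in S2-03, and at 25.6 to 110.2 CPM (median 50.9) in the others, and S1-12 lay below the FS S2-06 and the PWT S1-07.

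MHC class II genes, which present antigen to T cells, had higher fitted values in the epidermal tumors, and 1 of them passed the test. All 9 tested MHC class II genes had a log2 fold change above 0 (median 1.45). Of these, 8 had an unadjusted p under 0.05, where 11.9% of all tested genes did, and 1 was called, where 1.63% were called higher. DESeq2 called 6 and edgeR without the filter 7. *DLA-DRA*, the class II alpha chain, stood at 588 CPM in S1-02, 192 in S1-04, 145 in S1-05, 64.5 in S1-12 and 527 in S2-03, and at 35.2 to 181 CPM (median 87.999) in the others (1.75 ± 0.41 SE, edgeR adjusted p = 0.0347). The call was lost without any one of S1-02, S1-04, S1-05 or S2-03 and without several of the other tumors. *CD74*, the invariant chain, stood at 822 CPM in S1-02, 283 in S1-04, 259.9 in S1-05, 186 in S1-12 and 469 in S2-03, and at 59.04 to 239.6 CPM (median 124) in the others, and was not called (1.39 ± 0.37 SE, edgeR adjusted p = 0.0761). *CD74* was called by DESeq2, and by edgeR with no type term, with type from histology, without the filter and without S1-12. *CIITA*, the master regulator of class II, stood at 1.84 to 23.8 CPM against 1.99 to 12.6 CPM (median 5.73) (1.36 ± 0.45 SE, edgeR adjusted p = 0.198). S1-02 and S2-03 were the highest of all 16 tumors for *DLA-DRA* and *CD74*, and S1-12 lay inside the range of the others for both.

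**Figure D3:**
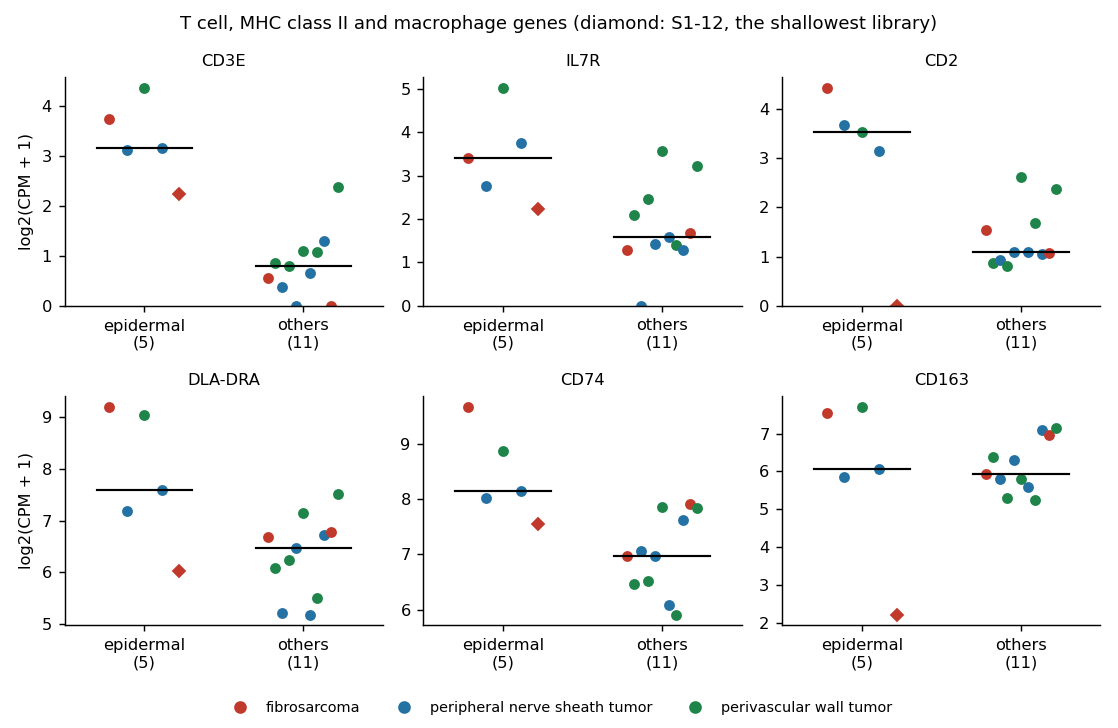
Level, as log2(CPM + 1), of T cell, MHC class II and macrophage genes in each tumor, with black bars at group medians and a diamond for S1-12. *CD3E* sits above most other tumors in all 5 epidermal tumors. *CD163* is highest of all in S2-03 and S1-02, inside the range of the others in S1-04 and S1-05, and lowest in S1-12.

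DESeq2 and unfiltered edgeR each called 3 dendritic cell genes (*CCR7*, *LAMP3* and *XCR1*). In the main test 1 of 7 tested was called, where 1.63% of all 15408 tested genes were called higher. The 1 was *CCR7*, the receptor that guides mature dendritic cells and naive T cells to lymph nodes, at 7.53 CPM in S1-02, 10.1 in S1-04, 5.84 in S1-05, 0 in S1-12 and 24.2 in S2-03 and at 0 to 3.80 CPM (median 0.560) in the others (3.36 ± 0.66 SE, edgeR adjusted p = 0.00775). *CCR7* passed the count filter only with the epidermal tumors, so its p-value is a description. *CD1D*, *FLT3* and *ZBTB46* were not called (log2 fold changes 0.96, 0.12 and 0.25). *CD207*, which defines Langerhans cells in other species, had 1 count over the 5 epidermal tumors and 2 over the others, too few to compare.

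No macrophage gene passed the test. All 15 tested members had a log2 fold change above 0 (median 0.63), 0 were called by edgeR, with the filter or without, and 0 by DESeq2. Of the 15, 2 had an unadjusted p under 0.05, near the 11.9% of all tested genes that did. *CD163* stood at 184 CPM in S1-02, 65.4 in S1-04, 57.2 in S1-05, 3.68 in S1-12 and 208 in S2-03, and at 37.2 to 141 CPM (median 59.9) in the others (0.41 ± 0.51 SE, edgeR adjusted p = 0.824). *CSF1R* and *CD68* differed by 0.33 ± 0.34 and 0.34 ± 0.55 (SE, edgeR adjusted p = 0.781 and 0.874). The summed macrophage list was highest of all 16 tumors in S1-02 and lowest of all in S1-12.

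B and plasma cell, neutrophil and mast cell genes were largely under the filter, with 2 of 12, 1 of 12 and 3 of 8 tested. edgeR called 0 and DESeq2 called 0 of them, with 2, 0 and 0 at an unadjusted p under 0.05. Without the filter edgeR called 4 B and plasma cell genes (*BLK*, *JCHAIN*, *MS4A1* and *POU2AF1*, named after these calls were seen) and 0 mast cell genes. *JCHAIN*, the joining chain of secreted antibodies, stood at 99.3 CPM in S1-02, 18.5 in S1-04, 12.3 in S1-05, 29.5 in S1-12 and 26.2 in S2-03, and at 1.64 to 28.6 CPM (median 14.6) in the others (1.43 ± 0.65 SE, edgeR adjusted p = 0.390), with S1-02 alone well above the rest. *CD22*, a B cell lectin, differed by 1.62 ± 0.58 (SE, edgeR adjusted p = 0.238). The neutrophil gene *S100A8* and the mast cell genes *HPGDS*, *GATA2* and *KIT* were not called (log2 fold changes 0.46, 0.53, 0.75 and -0.01).

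The number of immune calls depended on single tumors. It was 0 without S1-04 or without S2-03, 1 without S1-02 or without S1-05, and 14 without S1-12. Without any one of the 4 deeper epidermal tumors, *CD3E*, *CD2* and *CCR7* no longer passed the count filter and so were not tested. In the S1 tumors alone the number was 0 (8 immune genes at an unadjusted p under 0.05). With S1-04 and S1-05 summed it was 1 (*IL7R*), and 5 when the same 15408 genes were kept. Without S1-12 the added calls included *CD74*, *CIITA* and *ZAP70*.

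No adipocyte gene passed the test. Of 24 adipocyte genes counted, 17 were tested, 11 had a log2 fold change above 0 (median 0.15), 0 were called by edgeR, 1 had an unadjusted p under 0.05 and DESeq2 called 0. *ADIPOQ*, the adipokine adiponectin, stood at 17.9 CPM in S1-02, 54.1 in S1-04, 29.2 in S1-05, 3.68 in S1-12 and 4.85 in S2-03, and at 0 to 29.4 CPM (median 5.23) in the others (1.06 ± 0.94 SE, edgeR adjusted p = 0.721). *PLIN1*, the coat protein of fat droplets, stood at 11.1 CPM in S1-02, 22.9 in S1-04, 18.7 in S1-05, 0 in S1-12 and 2.42 in S2-03, and at 0 to 9.78 CPM (median 1.90) in the others (1.57 ± 0.61 SE, edgeR adjusted p = 0.292). *PLIN4* differed by 0.35 ± 0.44 (SE, edgeR adjusted p = 0.829). The knee tumors S1-04 and S1-05 had the highest *PLIN1* of all 16, and S1-04 the highest *ADIPOQ*, while S1-12 and S2-03 lay inside the range of the others for both. The summed list stood at 459 CPM in S1-02, 685 in S1-04, 819.5 in S1-05, 188 in S1-12 and 449 in S2-03 and at 288 to 856 CPM (median 458) in the others. With no filter on low counts *PLIN1* was called.

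**Figure D4:**
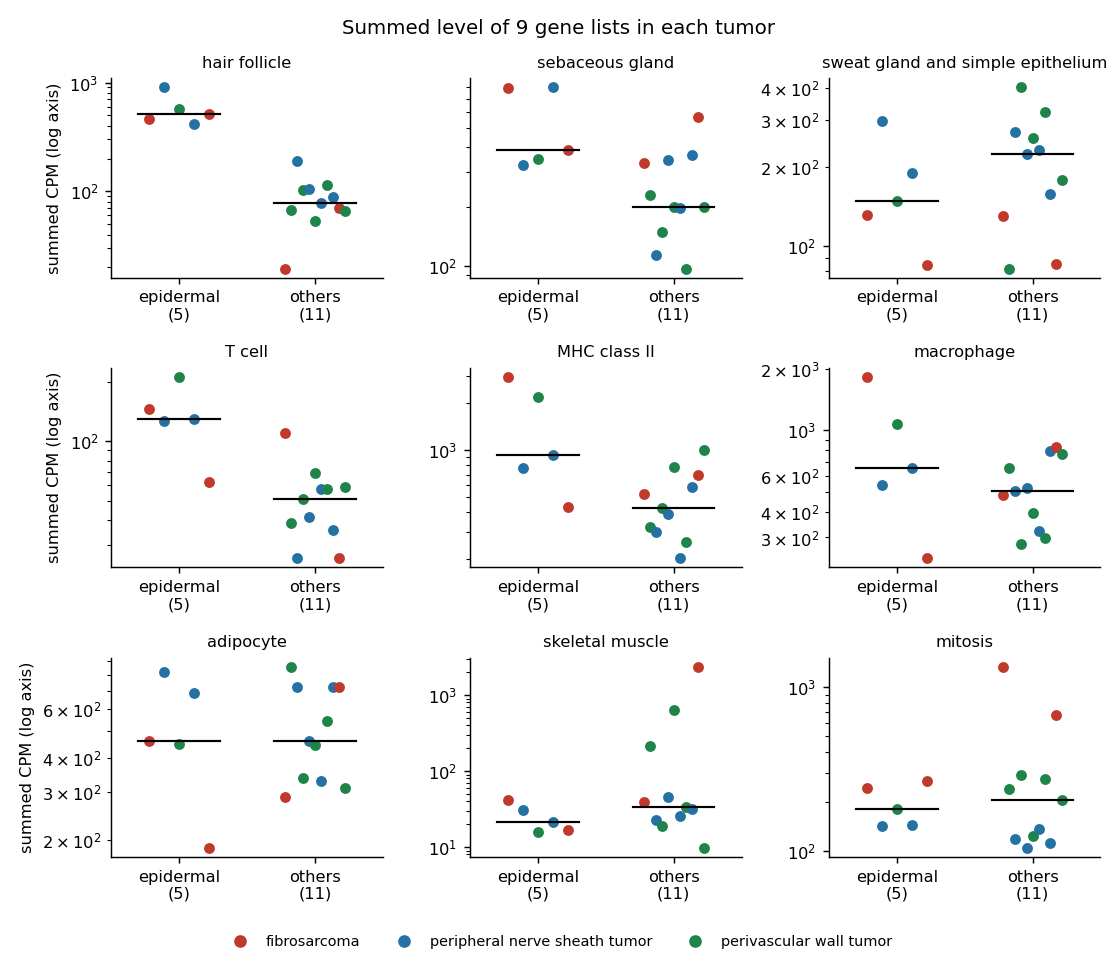
Summed CPM of 9 gene lists in each tumor on log axes, with points colored by tumor type and black bars at group medians. The follicle list separates the 5 epidermal tumors from the other 11, the T cell list overlaps through S1-12, and the MHC class II list through S1-04, S1-05 and S1-12. The adipocyte lists of both groups have nearly the same median.

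Other tissues of the skin and its surroundings gave few calls. Of 4 tested melanocyte genes 0 were called by edgeR and 1 had an unadjusted p under 0.05, while DESeq2 and unfiltered edgeR called 2, *TYRP1* and *TRPM1*. *PMEL*, a melanosome protein, stood at 20.1 CPM in S1-02, 16.03 in S1-04, 20.4 in S1-05, 33.1 in S1-12 and 18.2 in S2-03, and at 5.98 to 19.05 CPM (median 9.98) in the others (0.86 ± 0.26 SE, edgeR adjusted p = 0.135). *TYRP1*, a pigment enzyme, had 43 counts over the epidermal tumors and 1 over the others, most of them in S1-05 and S1-04 (named after its counts were seen). Endothelial genes (15 tested, 0 called by edgeR or DESeq2, 0 at an unadjusted p under 0.05, median 0.23) and smooth muscle genes (10 tested, 0 called by edgeR or DESeq2, 0 at an unadjusted p under 0.05, median -0.03) were not called in either direction. Without the filter edgeR called 2 smooth muscle genes lower (*ACTG2* and *DES*) and 0 endothelial genes.

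Skeletal muscle, which lies under the skin and the fat, had lower values in the epidermal tumors without passing the test. All 4 tested genes had a log2 fold change under 0 (median -1.89), 0 were called by edgeR or DESeq2 and 2 had an unadjusted p under 0.05. Without the filter edgeR called 10 skeletal muscle genes lower. *NEB*, nebulin, stood at 23.3 CPM in S1-02, 2.83 in S1-04, 2.34 in S1-05, 5.52 in S1-12 and 8.88 in S2-03, and at 2.41 to 1121 CPM (median 8.33) in the others (-2.96 ± 1.08 SE, edgeR adjusted p = 0.261), and the high values came from single tumors, S1-11 first. *ACTA1* had 13 counts in the epidermal tumors and 977 in the others, and *TNNT3* had 0 and 277 (named after their counts were seen). These counts are pooled over tumors. The summed skeletal muscle list stood at 2354 CPM in S1-11, 640 in S1-07 and 215 in S2-09. Its median over the 11 other tumors, 33.3 CPM, lay inside the range of the epidermal tumors (15.7 to 41.9 CPM).

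Of 5 Schwann cell genes tested 1 was called, where 1.63% of all 15408 tested genes were called higher. *ERBB3*, a neuregulin receptor that epithelia also use, stood at 33.3 CPM in S1-02, 37.7 in S1-04, 43.8 in S1-05, 34.99 in S1-12 and 35.1 in S2-03, and at 3.27 to 19.4 CPM (median 11.2) in the others (1.63 ± 0.32 SE, edgeR adjusted p = 0.00892), with no overlap. Every epidermal tumor lay above every other tumor for 0.909% of all tested genes. The *ERBB3* call was lost without S1-05 and without S2-03. *S100B* lay the other way, at 0 to 5.26 CPM against 1.45 to 76.3 CPM (median 7.11), and was not called by edgeR, though DESeq2 called it (-2.82 ± 0.81 SE, edgeR adjusted p = 0.109). *SOX10* and *MBP* differed by 0.33 ± 0.46 and 0.08 ± 0.57 (SE, edgeR adjusted p = 0.846 and 0.978).

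Of 14 dermal fibroblast genes tested 1 was called, where 1.63% of all 15408 tested genes were called higher. The median log2 fold change of the 14 was 0.01. *APCDD1*, an inhibitor of Wnt signaling made by dermal papilla and other skin cells, stood at 22.9 CPM in S1-02, 20.4 in S1-04, 23.4 in S1-05, 626 in S1-12 and 17.8 in S2-03, and at 0 to 143 CPM (median 2.24) in the others (2.82 ± 0.64 SE, edgeR adjusted p = 0.0247). *APCDD1* passed the count filter only with the epidermal tumors, so its p-value is a description. Its call was lost without any one of S1-12, S1-04, S1-05, S2-03 or S1-03. *AXIN2* and *WIF1* were not called (1.02 ± 0.64 and 1.26 ± 1.20 SE, edgeR adjusted p = 0.582 and 0.751).

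Proliferation genes had lower fitted values in the epidermal tumors without passing the test. All 12 tested mitosis genes had a log2 fold change under 0 (median -0.54, against -0.03 over all genes), 0 were called by edgeR or DESeq2 and 1 had an unadjusted p under 0.05. Without the filter edgeR called *TOP2A* lower. *TOP2A*, a topoisomerase of dividing cells, stood at 31.2 CPM in S1-02, 18.9 in S1-04, 14.02 in S1-05, 49.7 in S1-12 and 20.2 in S2-03, and at 12.7 to 292 CPM (median 38.4) in the others (-1.01 ± 0.37 SE, edgeR adjusted p = 0.261). *MKI67* and *CCNB1* differed by -0.29 ± 0.34 and -0.14 ± 0.44 (SE, edgeR adjusted p = 0.812 and 0.945). *TOP2A* and *MKI67* were highest in the FS S1-11 and S2-06, and the summed list overlapped between the groups.

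The 13 genes called lower were few and spread over functions. *PCCB*, a subunit of propionyl-CoA carboxylase, stood at 8.25 CPM in S1-02, 9.11 in S1-04, 11.1 in S1-05, 11.05 in S1-12 and 8.88 in S2-03, and at 16.998 to 36.7 CPM (median 25.4) in the others, with no overlap (-1.43 ± 0.25 SE, edgeR adjusted p = 0.00328). *WDR89* stood at 0 to 0.584 CPM against 1.68 to 7.13 CPM (median 3.33), also with no overlap (-3.56 ± 0.60 SE, edgeR adjusted p = 0.00210). *SSB*, which binds new RNA polymerase III transcripts, stood at 14.6 to 27.6 CPM against 31.4 to 64.1 CPM (median 45.6) (-1.001 ± 0.20 SE, edgeR adjusted p = 0.0101), and its log2 fold change lay so near the threshold that RLE or upper quartile normalization ended the call.

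*MTHFD1*, of folate metabolism, stood at 22.1 to 31.4 CPM against 25.3 to 86.7 CPM (median 54.1) (-1.13 ± 0.23 SE, edgeR adjusted p = 0.0120), and *IMPDH2*, of guanine nucleotide synthesis, stood at 27.6 to 101 CPM against 74.6 to 183 CPM (median 124) (-1.04 ± 0.22 SE, edgeR adjusted p = 0.0160). *TUBB6*, a tubulin, *ZNF423*, a zinc finger factor of mesenchymal cells, *GPX8*, a peroxidase of the endoplasmic reticulum, *MAMLD1* and *TNNT2* completed the first 10, with log2 fold changes of -1.17, -2.15, -1.28, -1.82 and -3.66. Without S1-02 the number called lower was 5, without S1-04 it was 7, without S1-05 5 and without S2-03 4.

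Of the 178 higher genes on no list, 39 had only a LOC number. The first 10 with a symbol were *PRR9*, *KRT33B*, *KRT89*, *C12H6orf132*, *ATP12A*, *TMPRSS13*, *S100A14*, *PROM2*, *PHYHIP* and *PRLR*, with log2 fold changes from 4.58 (*PROM2*) to 8.24 (*KRT33B*). *PRR9*, a proline-rich protein of the cornified layer and follicle, stood at 22.2 CPM in S1-02, 21.7 in S1-04, 49.1 in S1-05, 18.4 in S1-12 and 25.04 in S2-03, and in the others at most at 0.284 CPM in S1-03 (8.15 ± 0.45 SE). *KRT33B*, a hair shaft keratin, stood at 26.2 CPM in S1-02, 28.9 in S1-04, 52.6 in S1-05, 34.99 in S1-12 and 23.02 in S2-03, and in the others at most at 0.475 CPM in S2-06 (8.24 ± 0.46 SE). *PRLR*, the prolactin receptor, stood at 20.8 CPM in S1-02, 16.03 in S1-04, 14.6 in S1-05, 16.6 in S1-12 and 21.8 in S2-03, and at 0 to 2.19 CPM (median 0.362) in the others (4.66 ± 0.503 SE). All 10 had every epidermal tumor above every other tumor, where 0.909% of all 15408 tested genes did. The 10 were picked for the smallest p and passed the count filter only with the epidermal tumors, so this is a description.

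The epidermal tumors were small. Their largest dimension, as the labels gave it and independent of the RNA, was 2 cm in S1-02, 1.3 cm in S1-04 and in S1-05, 2 cm in S1-12 and 2.5 cm in S2-03. The other 11 measured 2.3 to 20 cm (median 5.9 cm), and 10 of them were larger than every epidermal tumor. The exception was S2-07, a PNST of 2.3 cm between the digits. On the log2 scale the mean difference was -1.71, or 3.28-fold in geometric mean (exact two-sided permutation test, p = 0.000458, adjusted over size, age and sex 0.00137).

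The size difference was also found within tumor types (exact permutation within types, p = 0.00185) and among the 9 S1 tumors (log2 difference -2.05, exact permutation p = 0.0159). With S1-04 and S1-05 as 1 tumor it was -1.60 (exact permutation p = 0.00220), and with the specimen size at processing where the labels gave one it was -1.66 (exact permutation p = 0.00321). By that measure S2-03 was 6.5 cm, inside the range of the others, and 5 of the other 11 were larger than every epidermal tumor. Ages overlapped, with means of 10.4 ± 1.14 years (SD, n = 5) and 10.5 ± 3.40 years (SD, n = 11; exact two-sided permutation test, p = 0.996, adjusted 0.996). All 5 epidermal tumors and 6 of the other 11 came from females (Fisher's exact test, two-sided, p = 0.119, adjusted 0.178). Whether size, site or the cut of the section set which tumors carried skin transcripts was not tested.

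**Figure D5:**
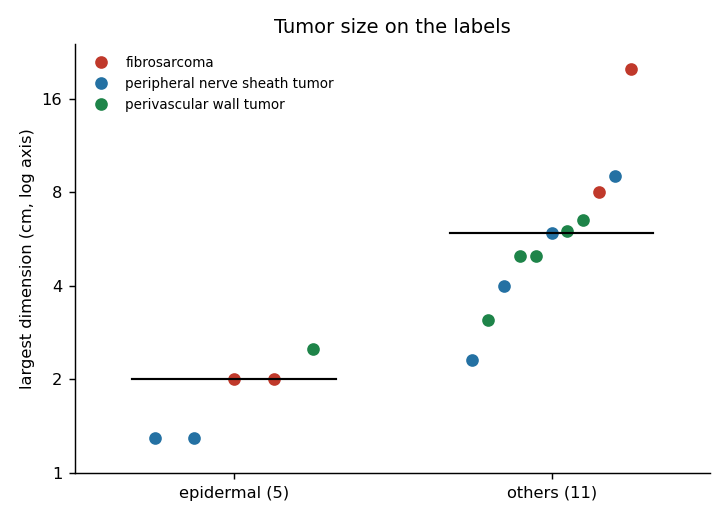
Largest dimension of each tumor on the labels, in cm on a log axis, with points colored by tumor type and black bars at group medians (2 and 5.9 cm). The 5 epidermal tumors lie at 1.3 to 2.5 cm, and of the other 11 only S2-07, at 2.3 cm, falls in that range.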

How the data were processed

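RNA was extracted from FFPE sections (RNeasy FFPE, Qiagen), enriched for mRNA with RiboMinus, and sequenced on an Ion Proton. The authors aligned reads to ROS-canfam-01 with STAR2, counted them with htseq-count and deposited raw counts per gene and run. Tool versions and the strand setting are not given in the sources used here. Rows that name no gene were left out, among them reads on no feature (41.8 to 66.7% per tumor) and reads with multiple alignments (9.11 to 31.6%).

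The 3 runs of each S1 tumor were summed, giving 507728 to 4311876 counts on genes per tumor. The main test was edgeR 4.0.16 (R 4.3.3; TMM, quasi-likelihood) over all 16 tumors, with tumor type (molecular identity) as a term. Genes needed 10 or more counts in 4 or more tumors, and a call needed a Benjamini-Hochberg adjusted p below 0.05 with a log2 fold change beyond 1 either way. The SE printed with an edgeR log2 fold change is its absolute value divided by the square root of the quasi-likelihood F statistic. It therefore restates the test and is not a separate measure of spread. DESeq2 1.42.0 was an alternative. Size and age were compared by exact permutation, and sex by Fisher's exact test (scipy 1.17.1). The edgeR script was tested on simulated counts for the same comparison over 15408 genes. Other alternatives covered the type term, prefix, normalization, filter, thinning, score and single tumors left out. 3 listed symbols were matched through RefSeq synonyms.

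The members and gene lists were chosen with earlier results of these data known. Named genes are the score genes, the first 3 tested members and up to 4 called members of each list with the smallest p, and the 10 higher and 10 lower genes with a symbol and the smallest p outside the lists. Genes described as named after their values were seen, and those in the closing observations, fall outside this rule, as do other single list members given with their ranges. A few genes that the rule or the lists include are not reported here.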

Additional observations from a re-analysis of the deposited data

Results flagged for a closer look

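Within the 5 epidermal tumors, 137 sets of values (named genes and summed lists) were examined for a single value lying far from the other 4, and 7 were found, where chance gives about 1 in 20. S1-12 lay far above the other 4 for *WIF1* (1039 CPM), *AXIN2* (747.7 CPM) and *APCDD1* (626.1 CPM), and below them for *CD2* (0 CPM, with 3 counts corresponding to 5.52 CPM in that tumor). *KIT* was 29.85 CPM in S1-04, above the other 4. The summed basal layer list was 858.1 CPM in S1-05, above the other 4, and the summed Schwann cell list was 48.46 CPM in S2-03, a PWT, below the other 4. The difference between the epidermal effect in FS and in PNST was tested as an interaction over 10 tumors, and 0 of 15408 genes passed edgeR's adjusted threshold (967 at an unadjusted p under 0.05).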

How the results depend on the processing

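Against 251 genes called higher, 13 lower, 7 immune, 22 adnexal and 0 fat, DESeq2 called 531, 46, 17, 37 and 0, and edgeR without a count filter called 975, 260, 27, 37 and 1. With at least 20 counts in 8 tumors, a filter that removes genes seen in only 5 tumors, 0 higher, 0 lower, 0 immune and 0 adnexal genes were called (1014 of 10312 at an unadjusted p under 0.05). Thinning every tumor to 507728 counts gave 46, 0, 0 and 6 for these. S1 tumors alone gave 44, 0, 0 and 9, and 87, 1, 0 and 17 on the same 15408 genes. S1-04 and S1-05 summed gave 93, 4, 1 and 9, and 181, 10, 5 and 21 on the same genes, so part of each loss came with the filter. Both settings on the same genes were chosen after seeing the data. The number called lower was 6 without a type term and 3 with the score as a continuous term, and the cause was not tested. Leaving out single tumors gave 72 to 327 genes higher, 4 to 18 lower, 0 to 14 immune, 9 to 22 adnexal and 0 fat.

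Of 112 named genes, 71 kept their side of the threshold in every setting that could test them, and 0 changed direction while called. The size difference held in every setting, with an exact permutation p of at most 0.0234 (in cm), and 0.000333 to 0.00220 without single tumors. Age and sex stayed on the other side (p = 0.382 to 1 by exact permutation and 0.101 to 0.231 by Fisher's exact test). No paired analysis was possible because the replicate numbers only name tumors within a type. Depth limits sparse genes most in S1-12.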

Other observations

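The following genes lie outside the fixed lists or were singled out after their values were seen. Several lymphocyte genes were called higher beside those of the T cell list. *IL2RB*, a chain of the interleukin-2 receptor, stood at 8.96 CPM in S1-02, 16.97 in S1-04, 14.6 in S1-05, 3.68 in S1-12 and 18.6 in S2-03, and at 0.548 to 6.64 CPM (median 1.68) in the others (2.28 ± 0.39 SE, edgeR adjusted p = 0.00238). *IKZF3*, a lymphocyte transcription factor, stood at 31.9 CPM in S1-02, 16.97 in S1-04, 10.5 in S1-05, 5.52 in S1-12 and 47.7 in S2-03, and at 0.560 to 8.98 CPM (median 2.54) in the others (2.92 ± 0.46 SE, edgeR adjusted p = 0.00107). *NLRC5*, a regulator of MHC class I genes, differed by 1.62 ± 0.38, with S2-04 above 3 of the epidermal tumors (SE, edgeR adjusted p = 0.0352). An immunoglobulin or receptor constant region gene without a symbol, *LOC119869019*, stood at 313 CPM in S1-02, 50.3 in S1-04, 19.3 in S1-05, 20.3 in S1-12 and 6.46 in S2-03, and at 0 to 10.8 CPM (median 0.950) in the others (5.54 ± 1.06 SE, edgeR adjusted p = 0.00645). S1-02 was far above the rest for it, as it was for *JCHAIN*. *IKZF3* and *LOC119869019* passed the count filter only with the epidermal tumors, so their p-values are descriptions.

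Cytokine genes of the epithelium were also called. *IL36RN*, *IL1RL2* and *AQP3* passed the count filter only with the epidermal tumors, so their calls and p-values are descriptions. *IL36RN*, the antagonist of interleukin-36, stood at 12.5 CPM in S1-02, 6.91 in S1-04, 8.18 in S1-05, 11.05 in S1-12 and 17.8 in S2-03 with no count in the other 11 tumors, at least 83.5-fold higher (against 3 counts over the 11 tumors). *IL1RL2*, the interleukin-36 receptor, stood at 7.89 CPM in S1-02, 8.80 in S1-04, 12.9 in S1-05, 3.68 in S1-12 and 14.5 in S2-03, and in the others at most at 2.74 CPM in S1-11 (4.15 ± 0.64 SE, edgeR adjusted p = 0.000823). *AQP3*, the water and glycerol channel of basal keratinocytes, stood at 10.8 to 18.4 CPM against at most 3.42 CPM in S1-07.

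Feedback genes of Wnt signaling were high together in S1-12. *WIF1* was 1039 CPM, *AXIN2* 748, *APCDD1* 626, *NKD1* 481, *DKK1* 227 and *LEF1* 81.03 CPM. The FS S1-11, outside the epidermal group, was second of all 16 tumors for each of these except *DKK1*, with *WIF1* at 324 CPM, *AXIN2* at 163 and *NKD1* at 91.02 CPM. The other 4 epidermal tumors had *WIF1* at 0 to 5.03 CPM and *APCDD1* at 17.8 to 23.4 CPM. These values were not tested as a set.

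All 4 of the tested protein-coding LOC genes with a keratin or KRTAP neighbor within 2 genes in the RefSeq table (UU_Cfam_GSD_1.0) were called higher, where 27 of 594 tested protein-coding LOC genes were (4.55%). They passed the count filter only with the epidermal tumors, so this is a description.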
